A study of Mus musculus with 24 samples.

Results

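Gene expression averaged over the brain of each animal was compared between mice lacking glutamine synthetase in the liver (KO) and wild-type mice (WT). For each of 8 animals, the arrays of its cerebral cortex, hippocampus and cerebellum were averaged, and the 4 KO animal means were set against the 4 WT animal means. All 24 arrays of the series entered the comparison, as did 19572 of the 22206 rows of the array, those for which the platform annotation gives a gene. The series asks how hyperammonemia, a raised level of ammonia in the blood, changes transcripts of the brain. Each animal is identified by its genotype and a number from 1 to 4 in the labels, so the replicates are separate animals. WT 1 and KO 1 are different animals. The promoter or Cre line behind the deletion, and the strain, age and sex of the mice, were not found in the labels. The deletion is specific to the liver, so a brain sample cannot show it, and the row of the targeted gene was not analysed here.

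Glutamine synthetase joins ammonia to glutamate. In the liver the enzyme sits in the cells around the central vein, where it removes the ammonia that the urea cycle has left in the blood. In the brain, astrocytes carry the same enzyme, and high blood ammonia is known to load these cells with glutamine, to swell them and to bring oxidative stress. The comparison of animal means looks for transcripts that moved in the same way across a whole brain, with the animal as the unit of replication.

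Values were used as deposited and are taken as log2 from their range of 3.89 to 19.14, since the labels do not name the log base, on which every fold given here depends. Array medians lay between 8.72 and 8.82. Granule and Purkinje cell markers averaged 13.87 to 14.32 in 7 of the 8 cerebellum arrays, 12.63 in the cerebellum of KO 3 and at most 9.22 elsewhere. All arrays read the 3 measured genes of the Y chromosome, at averages of 10.08 to 11.20. Markers of neighbouring tissue were high in single arrays. The 16 measured olfactory bulb markers averaged 12.06 in the cortex of KO 1 and 11.52 in the cortex of KO 4, against 8.56 to 9.09 in the WT cortex arrays. The 16 measured markers of brainstem and spinal cord averaged 8.93 in the cerebellum of KO 3 and 7.36 to 7.68 in the WT cerebellum arrays. That array was also high in neocortex markers, at 9.69 with the other cerebellum arrays at 8.62 to 9.09, and in myelin markers, at 12.94 with the others at 11.09 to 11.58. The 9 measured pituitary and pineal markers averaged 9.61 in the cortex of WT 3 and 7.28 to 7.67 in the other cortex arrays. Thalamus and midbrain markers averaged 10.29 in the cortex of WT 4, with the other cortex arrays at 9.12 to 10.06. In the hippocampus they averaged 11.16 in WT 3, with the others at 9.31 to 10.71. Striatum markers ran from 9.09 to 10.47 over the hippocampus arrays. Below, a value "without the 3 arrays" leaves out cortex KO 1, cortex KO 4 and cerebellum KO 3 and takes each remaining array relative to the WT mean of its region. Such a value keeps all hippocampus arrays and the cortex of WT 3 and WT 4, so other differences in neighbouring tissue remain in it. In whole tissue, a change in the share of a cell type and a change of RNA per cell cannot be told apart.

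The gene of smallest p among those lower in KO was Plxnd1, a semaphorin receptor with a log2 difference of -0.48, and among those higher it was Serpina3n, an acute-phase protease inhibitor with a difference of 0.60, or 0.22 with 3 arrays of high neighbouring-tissue markers left out. The largest difference, 3.57, was that of the inflammation marker Lcn2, which was high in KO 1, KO 2 and KO 3 and not in KO 4. None of these genes, and no other, passed the test of KO against WT on the animal means. With limma and Benjamini-Hochberg adjustment over all rows, 0 of 19572 rows (0%) had an adjusted p of 0.05 or less, and the smallest adjusted p was 0.3565, for Plxnd1. An unadjusted p under 0.05 was reached by 1331 rows (6.8%), of which 747 (3.82%) were higher in KO and 584 (2.98%) lower. The 1331 rows became 872 without WT 2, 821 without the cortex and 648 without the 3 arrays. Without limma's moderation of the variances, 0 rows passed and 1290 reached an unadjusted p under 0.05. All 4 KO animals lay above all 4 WT animals in 367 rows (1.88%) and below them in 403 rows (2.06%), together 770 rows (3.93%). KO was higher than WT in 50.6% of rows, with a median difference over all rows of 0.001. These shares are the background for the gene groups described below.

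For most rows the animal means bounded the difference averaged over the 3 regions closely. A change in 1 region is diluted in that average. Dim rows, whose differences RMA shrinks and whose detection could not be judged, are among those counted. The residual standard deviation of an animal mean was 0.109 (median over rows), the standard error of the difference was 0.08, and its 95% interval reached 0.17 to either side. For 19276 rows (98.5%) the 95% interval lay within a 1.5-fold difference in either direction, and for 19519 rows (99.7%) within a 2-fold difference. A difference of at least 1.5-fold was measured in 28 rows (0.143%), 25 higher and 3 lower in KO, and of at least 2-fold in 6 rows (0.0307%). Those 6 were Lcn2, Stoml3, Th and Meis2, higher in KO, and Ttr and Gh, lower in KO. Without the 3 arrays, 5 of the 28 rows kept a difference of at least 1.5-fold, and they were Lcn2, the neuropeptide precursor Tac1, the thyroid hormone carrier Ttr and the pituitary hormones Gh and Prl. Those 3 arrays are all KO, and the arrays of WT 3, whose pituitary markers were high, stayed in. Markers of choroid plexus, the source of Ttr, averaged 11.02 in the omitted KO 3 cerebellum and 8.62 to 8.67 in the other KO cerebella. Without WT 3 the difference of Gh went from -1.60 to -0.26 and that of Prl from -0.81 to -0.08. Without WT 1 that of Tac1 went from 0.74 to 0.36, below 1.5-fold, and without KO 3 to 0.44. Tac1 is also 1 of the striatum markers, whose mean was 9.15 in WT 1 and 9.46 to 10.03 in the other animals. The part of striatum tissue in the Tac1 difference was not tested. With each animal left out in turn, 2 of the 5, Lcn2 and Ttr, had a difference of at least 1.5-fold every time. These genes were picked out by the size of their values after those had been seen.

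The differences were also set side by side across the regions. The sign was the same in all 3 regions in 5622 rows (28.7%). The interaction of region and genotype, fitted with limma on the 24 arrays, passed an adjusted p of 0.05 in 0 rows (0%), with a smallest adjusted p of 0.9209, and reached an unadjusted p under 0.05 in 996 rows (5.09%). That last count was 557 without WT 1, 1559 without KO 2 and 625 without the 3 arrays. The values by region below are descriptions.

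Among the 12 genes of smallest p that were higher in KO, the first by p was Serpina3n, a secreted protease inhibitor that reactive astrocytes make in quantity. Its animal means were 9.24, 9.26, 9.54 and 9.36 in WT 1 to WT 4 and 9.94, 9.80, 10.28 and 9.77 in KO 1 to KO 4. All KO animals lay above all WT animals, and the difference was 0.60 (SE 0.11, n = 4 per genotype, limma adjusted p = 0.5142). The arrays differed in it. In the cortex Serpina3n read 10.18 in KO 1, 9.55 in KO 2, 8.89 in KO 3 and 9.93 in KO 4 against 8.45 to 9.20 in WT, and in the cerebellum 10.16 in KO 3 against 7.50 to 8.06 in WT, with the other KO arrays at 7.70 to 8.27. In the hippocampus both genotypes overlapped, at 11.60 to 11.77 in KO and 11.28 to 11.71 in WT. Without the 3 arrays the difference was 0.22.

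Igfbp7, a secreted protein of blood vessels that binds insulin-like growth factors, had the most even profile of the 12. It was higher in cortex by 0.34, in hippocampus by 0.39 and in cerebellum by 0.43. Its animal means were 11.52 to 11.57 in the 4 WT animals and 12.08, 11.98, 11.98 and 11.66 in KO 1 to KO 4, so every KO animal was above every WT animal and KO 4 was nearest to them. The difference was 0.39 (SE 0.09, n = 4 per genotype, limma adjusted p = 0.7202), and 0.28 without the 3 arrays. Postn, an adhesion protein of the extracellular matrix, differed by 0.42 over the brain and by 0.27 without the 3 arrays, with region values of 0.73, 0.22 and 0.30 in cortex, hippocampus and cerebellum.

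Several of the other genes in this group were high in the cortex or cerebellum of single animals. Stoml3, a stomatin-like protein of sensory neurons that tunes mechanically gated channels, read 13 in the cortex of KO 1 and 12.14 in that of KO 4, while the cortex of KO 2 and KO 3 read 7.75 and 8.17 and the WT cortex 7.08 to 7.42. Its difference of animal means was 1.31 (SE 0.27), and KO 2 at 7.95 lay below WT 4 at 8.05. Without KO 2, 4 rows passed, and Stoml3 was among them at 1.64 (limma adjusted p = 0.01312), beside Galntl6, Prss23 and Arhgef6. The homeobox factor Meis2 read 16.43 and 16.33 in the cortex of KO 1 and KO 4 and 13.83 in the cerebellum of KO 3, above the WT ranges of 13.24 to 14.21 and 8.41 to 11.31. The Meis2 difference of 1.03 over the brain became 0.32 without the 3 arrays, and that of Stoml3 became 0.45. Olfactory bulb markers were high in the same 2 cortex arrays and brainstem markers in the same cerebellum array, and their part in these differences was not tested.

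The serine protease Prss23 differed by 0.58, with 1.29 in the cortex and 0.21 and 0.25 in hippocampus and cerebellum. Plekha2, an adaptor that binds membrane phosphoinositides, differed by 0.44, with 1.19 in the cortex and 0.13 and 0.01 elsewhere. Deptor, which binds and inhibits the kinase mTOR, differed by 0.35 over the brain and by 0.02 without the 3 arrays. Stxbp6, a partner of the SNARE proteins that fuse vesicles with membranes, differed by 0.64, and the granule protein Scg2 by 0.53, both with their largest regional value in the cerebellum (1.15 for Stxbp6 and 0.91 for Scg2). Pacsin2, which bends membranes in endocytosis, differed by 0.38 and Arhgef6, an exchange factor for Rac and Cdc42, by 0.55. In 10 of these 12 genes all KO animals were above all WT animals, the exceptions being Stoml3 and Arhgef6. The median difference of the 12 was 0.54 and became 0.23 without the 3 arrays, where 6 of the 12 kept an unadjusted p under 0.05.

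**Figure D1:**
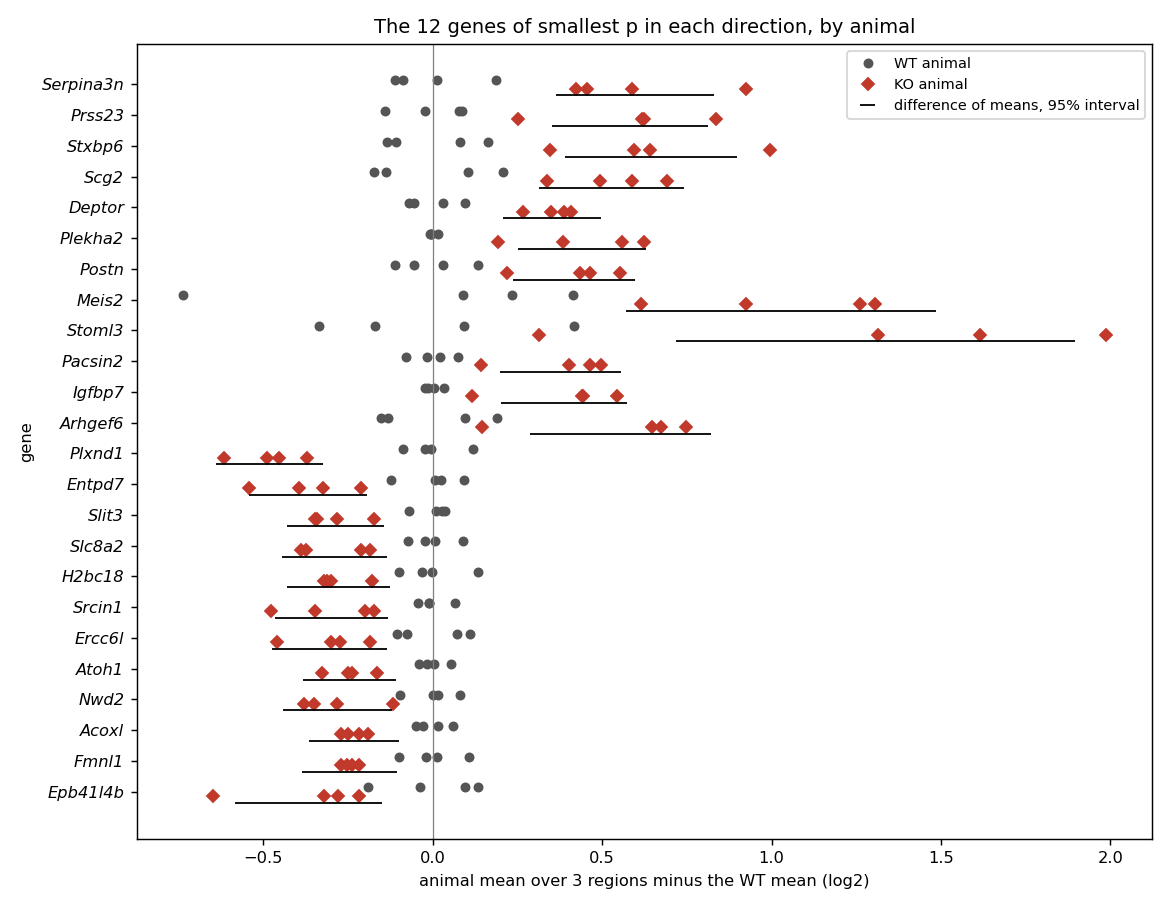
Animal means over the 3 regions for the 12 genes of smallest p in each direction, drawn as the log2 value minus the mean of the 4 WT animals; grey circles are WT animals, red diamonds KO animals, and the black line is the 95% interval of the KO minus WT difference. The genes were ranked on these same values, so the distance between the groups is how they were picked; the 4 KO animals of Stoml3 and Meis2 spread more widely than those of the genes lower in KO.

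The 12 genes of smallest p that were lower in KO had a median difference of -0.29, smaller in size than the 0.54 of those that were higher. Plxnd1, a receptor for semaphorins in vessels and axons, had animal means of 10.21, 10.29, 10.27 and 10.41 in WT 1 to WT 4 and 9.68, 9.81, 9.92 and 9.84 in KO 1 to KO 4. The groups did not overlap in these means, and the difference was -0.48 (SE 0.07, n = 4 per genotype, limma adjusted p = 0.3565). Within each region they did overlap, as in the hippocampus, at 9.61 to 9.73 in KO and 9.38 to 10.79 in WT. By region the difference was -0.74 (cortex), -0.47 (hippocampus) and -0.23 (cerebellum), and without the 3 arrays it was -0.32. When the median of an animal's 3 regions was taken in place of the mean, Plxnd1 was the single row that passed, with a difference of -0.58 and a limma adjusted p of 0.03425.

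Entpd7, an enzyme that splits nucleoside triphosphates inside cells, differed by -0.46 in cortex, -0.31 in hippocampus and -0.33 in cerebellum. Its animal means were 12.11, 12.32, 12.25 and 12.24 in WT and 12.02, 11.69, 11.84 and 11.91 in KO, all KO animals below all WT animals. Within each region the genotypes overlapped. In the cerebellum Entpd7 read 12.58, 12.75, 11.80 and 11.41 in KO 1 to KO 4, against 12.27 to 12.62 in WT. The difference of -0.37 (SE 0.08, n = 4 per genotype, limma adjusted p = 0.7202) was -0.34 without the 3 arrays. The histone gene H2bc18 differed by -0.32, -0.31 and -0.20 in cortex, hippocampus and cerebellum, and Ercc6l, a DNA translocase that acts on chromosomes in mitosis, by -0.34, -0.23 and -0.35.

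The remaining genes of the lower group had differences from -0.23 to -0.37. They were the axon guidance ligand Slit3 (-0.29), the sodium-calcium exchanger Slc8a2 (-0.29), the Src kinase regulator Srcin1 (-0.30), the granule cell lineage factor Atoh1 (-0.25), Nwd2 (-0.28), the acyl-CoA oxidase relative Acoxl (-0.23), the formin Fmnl1 (-0.25) and the FERM domain protein Epb41l4b (-0.37). Atoh1 differed most in the cerebellum (-0.46) and Fmnl1 in the cortex (-0.65). In WT animals Atoh1 read 7.30 to 7.43 in the cerebellum, 7.01 to 7.38 in the cortex and 7.17 to 7.43 in the hippocampus. It was thus no brighter in the cerebellum than elsewhere. The animal means of Atoh1, Acoxl and Ercc6l were dim, at 6.60 to 7.41, and their detection could not be judged. In all 12 lower genes the 4 KO animals were below the 4 WT animals, and 11 had the same sign in all 3 regions; Nwd2 was the exception, at 0.10 in the cerebellum. The median of the 12 was -0.29 and became -0.22 without the 3 arrays, where 7 kept an unadjusted p under 0.05. Over both groups, 21 of the 24 genes had 1 sign in all 3 regions and 22 of 24 showed no overlap, counts that the choice by p favours.

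**Figure D2:**
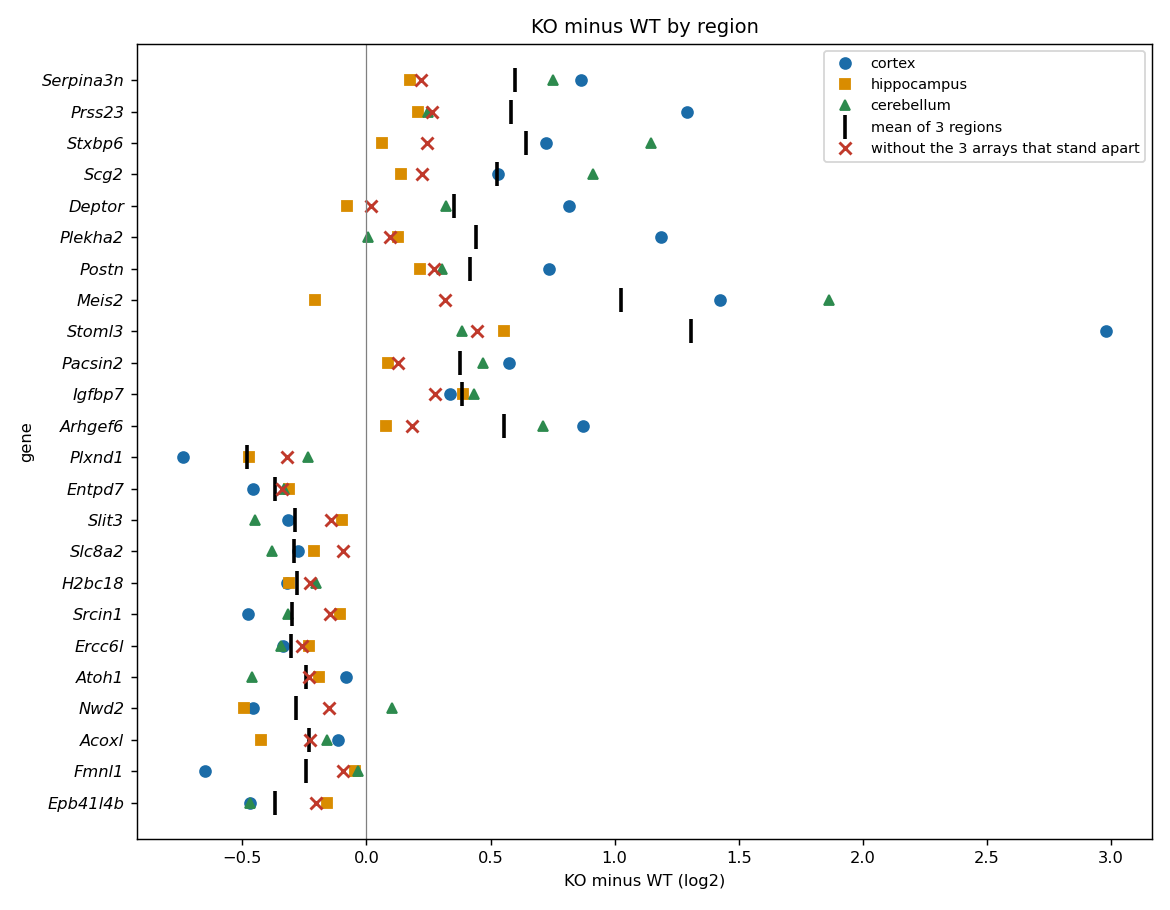
KO minus WT (log2) for the same 24 genes in cortex (blue circles), hippocampus (orange squares) and cerebellum (green triangles), with the mean of the 3 regions as a black bar and the value without cortex KO 1, cortex KO 4 and cerebellum KO 3 as a red cross. Among the genes higher in KO, the hippocampus value was the smallest in size for 9 of 12, and the crosses lie nearer to 0 than the bars for Stoml3, Meis2 and Deptor, while those of Entpd7 and Acoxl lie close to the bars.

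The same comparison was made for all rows at an unadjusted p under 0.05. Of the 747 higher in KO, 724 kept their sign without the 3 arrays and 217 kept an unadjusted p under 0.05, and their median difference went from 0.22 to 0.14. Of the 584 lower in KO, 575 kept their sign and 176 that p, with a median going from -0.19 to -0.14. These rows were picked by p and direction on values that included the arrays kept, a choice that favours keeping the sign. The share of all rows that kept their sign is not given here, so the counts of kept signs have no background and cannot show that the differences hold. The spread of the 4 WT animals around their mean was alike, at a standard deviation over rows of 0.106 to 0.110, and that of KO 1, KO 2, KO 3 and KO 4 was 0.129, 0.107, 0.153 and 0.128.

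The largest difference of the whole comparison was that of Lcn2, which codes for lipocalin 2, a secreted protein that binds bacterial iron carriers and is made by astrocytes and other cells in inflammation. Its animal means were 8.91, 6.83, 7.10 and 7.37 in WT 1 to WT 4, and 11.80, 12.30, 13.07 and 7.32 in KO 1 to KO 4. KO 1, KO 2 and KO 3 were far above every WT animal, and KO 4 lay among the WT animals. The difference was 3.57 (SE 0.93, n = 4 per genotype), with a limma adjusted p of 0.7202. Without KO 4 it was 4.83, with a limma adjusted p of 0.000695 as the only row that passed.

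Lcn2 was high or low in the whole brain of an animal. KO 1 to KO 4 read 11.81, 12.29, 12.25 and 7.44 for cortex, 12.22, 12.07, 13.40 and 7.13 for hippocampus and 11.37, 12.53, 13.56 and 7.39 for cerebellum. The WT animal with the highest values was WT 1 in all regions, at 8.67, 9.33 and 8.75, while the other WT arrays read 6.67 to 7.64. The regional differences were 3.47, 3.42 and 3.82 in cortex, hippocampus and cerebellum, and the difference was nearly as large, 3.45, without the 3 arrays.

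The other genes of the reactive astrocyte list differed less than Lcn2. Of its 16 measured members 12 were higher in KO and 0 passed, with a median of 0.10 that was 0.08 without the 3 arrays. Gfap, the intermediate filament protein that marks astrocytes, differed by 0.15 (95% interval -0.18 to 0.49), and by -0.08, -0.12 and 0.66 in cortex, hippocampus and cerebellum. In the cerebellum Gfap read 13.45 in KO 3 and 11.65 to 11.71 in the other KO arrays, against 11.22 to 11.76 in WT. Vim, another filament gene of these cells, differed by 0.01, the cytokine signal transducer Stat3 by 0.20 and its inhibitor Socs3 by -0.13. Fbln5, an elastic fibre protein, differed by 0.35 and by 0.30 without the 3 arrays.

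Lcn2 stood beside Nfkbia, the inhibitor of NF-kappaB, and Sgk1, a kinase induced by glucocorticoids, among the genes that set animals of a genotype apart, and the sequence upstream of their transcription starts is shown for these 3 genes. Each run is the 250 bases before a start in GRCm38.p6, taken from RefSeq and written 5′ to 3′ on the strand of the gene: chr2:32387740-32387989 on the minus strand for Lcn2, chr12:55492648-55492897 on the minus strand for Nfkbia and chr10:21993640-21993889 on the plus strand for Sgk1, the 1 of its 6 listed starts with a match. Capitals mark a match, on either strand, to the kappaB consensus or to the glucocorticoid response element GAACANNNTGTTC.
Lcn2: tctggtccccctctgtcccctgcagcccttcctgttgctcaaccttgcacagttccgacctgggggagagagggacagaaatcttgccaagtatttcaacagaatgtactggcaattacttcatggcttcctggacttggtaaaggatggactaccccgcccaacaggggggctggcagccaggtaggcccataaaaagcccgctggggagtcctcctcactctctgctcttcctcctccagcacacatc
Nfkbia: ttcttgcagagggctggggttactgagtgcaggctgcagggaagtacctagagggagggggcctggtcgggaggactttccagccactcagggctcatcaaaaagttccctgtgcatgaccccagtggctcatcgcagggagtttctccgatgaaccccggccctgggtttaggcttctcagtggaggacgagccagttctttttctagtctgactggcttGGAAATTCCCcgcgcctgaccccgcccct
Sgk1: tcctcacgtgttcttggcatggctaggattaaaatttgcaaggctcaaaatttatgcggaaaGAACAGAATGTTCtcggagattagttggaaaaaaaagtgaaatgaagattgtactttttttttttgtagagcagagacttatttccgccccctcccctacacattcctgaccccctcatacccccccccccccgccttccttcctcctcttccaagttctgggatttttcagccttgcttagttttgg
The Nfkbia run holds 1 kappaB match whose first base is 29 bases before the start, and the Sgk1 run holds 1 glucocorticoid response element whose first base is 188 bases before the start. Neither motif matched in the Lcn2 window or before the other Sgk1 starts. Of all 32851 promoter windows of this length, 7.25% held the kappaB consensus and 0.0396% the glucocorticoid response element. A match describes letters only and was not tied to any difference between animals.

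How far animals of a genotype differed was then measured for all rows, with a limma F statistic over 6 animal contrasts on the 24 arrays after removal of the region and genotype means. The test asks whether the 3 regions of an animal deviate together. It was passed by 12 rows (0.0613%) at an adjusted p of 0.05 or less, and 1005 rows (5.13%) reached an unadjusted p under 0.05. The 12 genes were Lcn2, Nfkbia, Mid1, Eps8l1, Sgk1, Txnip, 1700048O20Rik, Gh, Gabra2, Ccn1, Hspa1a and BC051142. Without WT 4 the count was 3 and without WT 1 it was 4, and all of those were among the 12. Over all rows, arrays of an animal correlated by 0.00646 after the group means were removed, with a residual standard deviation per array of 0.192.

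Lcn2 had the largest F, 117 (limma adjusted p = 1.16e-09). Nfkbia came next, with animal means of 9.12, 9.60, 10.26 and 10.68 in WT 1 to WT 4 and 9.24, 9.42, 10.04 and 10.25 in KO 1 to KO 4 (limma adjusted p between animals = 1.78e-05). Its KO minus WT difference was -0.18, with a 95% interval of -0.80 to 0.45, and the 2 genotypes overlapped over most of their range. The 4 lowest animals were WT 1, WT 2, KO 1 and KO 2, at most 9.60, and the others lay at 10.04 or above.

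Sgk1 took the values 11.08, 11.78, 12.43 and 13 in WT and 10.76, 11.45, 12.83 and 12.26 in KO (limma adjusted p between animals = 0.00439). Its lowest WT animal was WT 1 and its highest WT 4, as for Nfkbia, and its lowest KO animal was KO 1. Txnip, an inhibitor of thioredoxin that follows glucose and glucocorticoids, took the values 12.60, 12.97, 13.49 and 13.78 in WT and 12.74, 12.95, 13.23 and 13.02 in KO, with its largest spread among WT animals. The KO minus WT differences were -0.25 (95% interval -1.16 to 0.66) for Sgk1 and -0.23 (-0.66 to 0.20) for Txnip. Of the 18 glucocorticoid-induced genes, 3 (Nfkbia, Sgk1 and Txnip) passed the test between animals, which 12 of all rows (0.0613%) passed. The members of the list were chosen with earlier results of these data known, so this count is not independent of them. In the test between genotypes 0 of the 18 passed, with 10 of 18 higher in KO and a median of 0.03. Without WT 1, and likewise without WT 4, Nfkbia was the 1 gene of the 3 that passed between animals, and Sgk1 and Txnip did not.

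Fkbp5, a chaperone of the glucocorticoid receptor and a common readout of its activity, was higher in KO by 0.43 (SE 0.16, limma adjusted p = 0.7202), and without the 3 arrays by 0.33. KO 3 was highest, with a mean of 12.99 against 12.19 to 12.28 in KO 1, KO 2 and KO 4, and without KO 3 the difference was 0.24. Cdkn1a, an inhibitor of the cell cycle that is on this list and on the p53 list, differed by 0.44, with 0.76 in the cortex and 0.27 and 0.30 in hippocampus and cerebellum. Sult1a1, a sulfotransferase, differed by 0.24. For Per1, Klf9 and Tsc22d3, other targets of the receptor, the differences were -0.12, 0.02 and 0.10.

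Mid1, a ubiquitin ligase gene on the X chromosome, split the animals in another way, with 11.61, 13.21, 12.01 and 12.45 in WT and 11.26, 11, 13.18 and 13.14 in KO. KO 3 and KO 4 were high beside WT 2, and KO 1 and KO 2 were low, and the genotypes differed by -0.18 (95% interval -1.18 to 0.83). Eps8l1, a regulator of actin, was highest in WT 4 at 8.32 and lowest in WT 3 at 6.79, with KO animals at 7.11 to 7.77. Gabra2, a subunit of the GABA-A receptor, was lowest in WT 4 in each region, at 12.22 for cortex, 13.70 for hippocampus and 10.86 for cerebellum, where the other WT arrays read 13.21 to 14.50, 14.77 to 15.21 and 12.62 to 12.74. Hspa1a, the inducible heat shock protein, was highest in KO 4, at 10.87 against 9.71 to 10.31 in the other 7 animals. Growth hormone (Gh) was highest in WT 3, at 17.46, 14.49 and 10.86 in cortex, hippocampus and cerebellum, and pituitary and pineal markers averaged 9.61 and 8.5 in the cortex and hippocampus of WT 3, whose part in the Gh value was not tested.

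**Figure D3:**
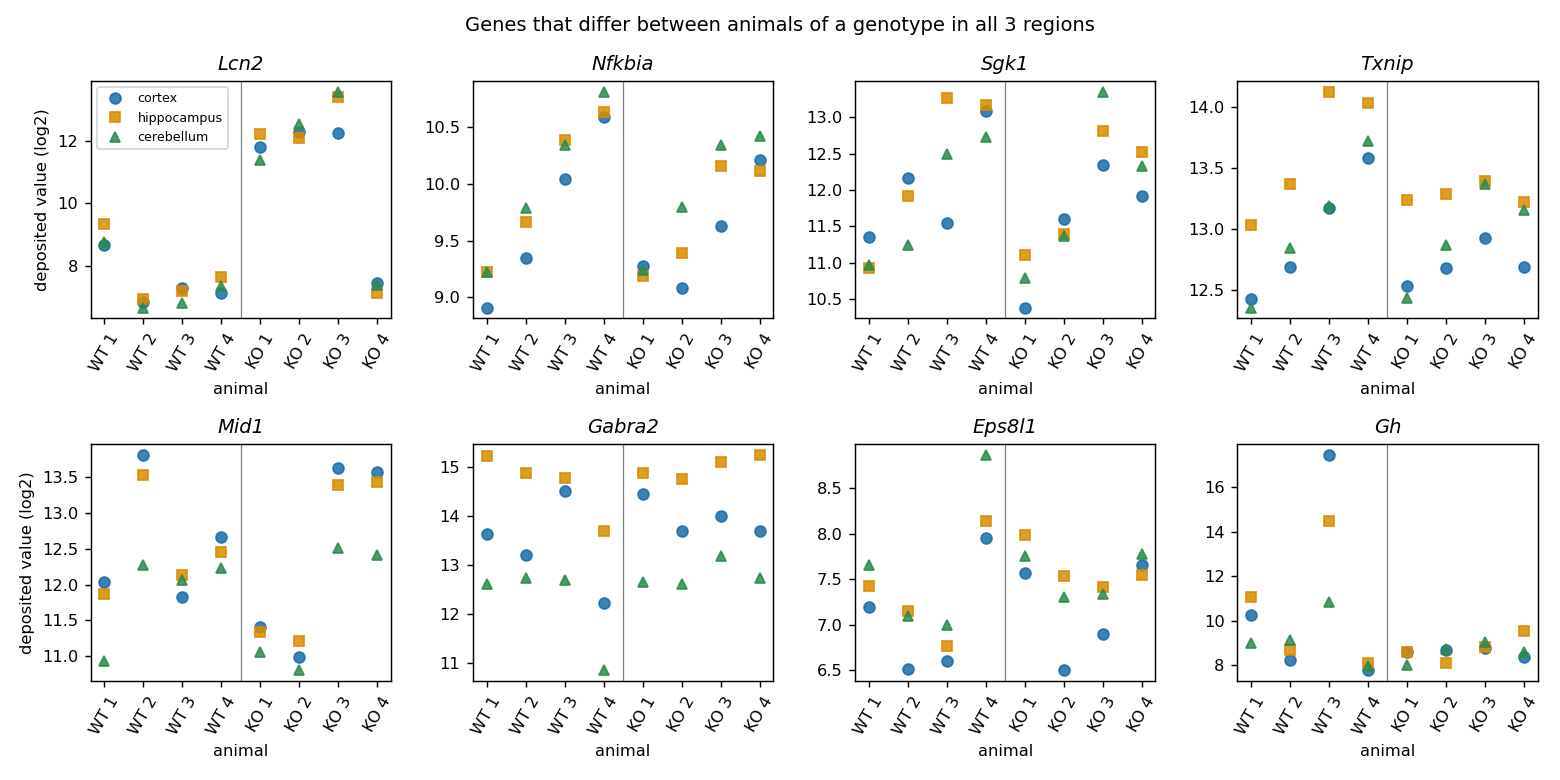
Deposited log2 values of 8 genes in each animal, with cortex as blue circles, hippocampus as orange squares and cerebellum as green triangles; the vertical line separates WT from KO animals. The 3 regions of an animal lie together for Lcn2, which is high in KO 1, KO 2 and KO 3 and not in KO 4, and for Nfkbia, whose WT and KO animals span like ranges; Gabra2 is lowest in WT 4 within each region.

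The genes of ammonia and glutamate handling showed small differences. Of 18 measured enzymes of glutamine and glutamate metabolism 15 were higher in KO and 0 passed, with a median of 0.09 that was 0.03 without the 3 arrays. Gpt2, the mitochondrial alanine aminotransferase, differed by 0.20, the GABA transaminase Abat by 0.18, and the glutamate decarboxylases Gad2 and Gad1 by 0.25 and 0.17, or 0.01 and -0.12 without the 3 arrays. Prodh, which starts the breakdown of proline, differed by 0.00 (95% interval -0.14 to 0.14) in the average over regions. By region its sign was not the same, at -0.18, 0.35 and -0.18 in cortex, hippocampus and cerebellum. Of 10 measured urea cycle and ammonia channel genes 6 were higher and 0 passed, with a median of 0.02 that was -0.01 without the 3 arrays. The arginase Arg2 differed by 0.22 (SE 0.09), with 0.45, 0.18 and 0.01 in cortex, hippocampus and cerebellum.

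Of 21 measured glutamate and glutamine transporters 15 were higher in KO and 0 passed, with a median of 0.08 that was 0.01 without the 3 arrays. The glial glutamate transporter Slc1a2 (GLT-1) differed by 0.02 (95% interval -0.16 to 0.19), and by -0.26, -0.05 and 0.36 in cortex, hippocampus and cerebellum. Its partner Slc1a3 (GLAST) differed by -0.05 (-0.33 to 0.24), with a KO 3 mean of 12.53 below the 13.05 to 13.10 of the other KO animals. The neuronal transporter Slc1a1 differed by 0.29 (SE 0.10, limma adjusted p = 0.7202) and by 0.20 without the 3 arrays. The GABA transporter Slc6a11 differed by 0.57, and by 0.09 without the 3 arrays. Slc38a3, the glutamine carrier of astrocytes, differed by 0.22 and by -0.02 without them.

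Genes that astrocytes use for water and potassium were mixed, 6 of 10 being higher in KO and 0 passing, with a median of 0.06 that was -0.02 without the 3 arrays. The water channel Aqp4 differed by -0.15 (95% interval -0.42 to 0.12), with its largest regional value, -0.35, in the hippocampus. There Aqp4 read 13.14, 12.80, 13.13 and 12.83 in KO and 13.13, 13.06, 13.64 and 13.48 in WT, and the groups overlapped. The gap junction gene Gjb6 differed by 0.22, the potassium channel Kcnj10 by 0.12 and the cation channel Trpm4 by -0.21.

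Oxidative stress genes leaned higher in KO in 20 of 22 measured members, with a median of 0.07 and 0 passing. Without the 3 arrays the median was 0.05 and 15 of 22 were higher. The peroxiredoxin Prdx1 differed by 0.24, the sulfiredoxin Srxn1 by 0.18 and the metallothionein Mt3 by 0.15, whereas Hmox1, the heme oxygenase, differed by 0.01 (95% interval -0.17 to 0.19). The p53 and senescence list was even, at 9 higher and 9 lower of 18, with a median of 0.00. Its damage-induced member Gadd45a differed by -0.17.

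All 14 measured chaperones of the endoplasmic reticulum were higher in KO, also without the 3 arrays, and 0 passed. Their median difference was 0.16, and 0.12 without the 3 arrays, against a range of 0.02 to 0.19 over the members. Dnajb9 differed by 0.19, the disulfide isomerase Pdia3 by 0.19, the lectin chaperones Calr and Canx by 0.17 and 0.15 and Hspa5 (BiP) by 0.18, with a 95% interval of -0.09 to 0.45. The mean of the list was 13.18, 12.94, 12.76 and 12.75 in WT 1 to WT 4 and 12.89, 12.99, 13.03 and 13.24 in KO 1 to KO 4, so the genotypes overlapped and WT 1 lay near KO 4. Heat shock proteins were higher in 9 of 11 members, with a median of 0.11, and the mean of that list was likewise high in WT 1 (12.34), KO 3 (12.34) and KO 4 (12.51) and 12.01 to 12.19 in the other animals. Members of a list share animals and arrays and are not independent counts. Bright rows in general leaned higher in KO: among the 4893 rows of highest mean value 65.8% were higher, and all 11 measured housekeeping genes were, with a median of 0.08. The part of brightness in the counts of these lists was not tested.

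Respiratory chain subunits were higher in 27 of 29 measured members with 0 passing, and their median of 0.09 was 0.02 without the 3 arrays. The mean of the list was 13.14 in KO 3 and 12.91 to 13.05 in the other 7 animals. Glycolysis and hypoxia genes had a median of 0.06 with 19 of 27 higher, the oxygen sensor Egln3 at 0.42 (0.07 without the 3 arrays) and the phosphofructokinase Pfkp at 0.17. Cholesterol synthesis genes had a median of 0.09 with 13 of 15 higher, and of 0.00 without KO 3 and without the cerebellum. The mean of that list was 11.70 in KO 3 and 11.28 to 11.39 in the other KO animals, and its regional medians were -0.03, -0.01 and 0.36 in cortex, hippocampus and cerebellum. Among its members Nsdhl differed by 0.25 and Mvd, which decarboxylates mevalonate, by -0.23. Interferon response genes had a median of 0.03 with 12 of 21 higher, and integrated stress response genes a median of -0.01 with 9 of 19 higher.

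Most members of the activity and timing lists were lower in KO, with small medians. Of 18 immediate early genes 13 were lower in KO and 0 passed, with a median of -0.07 that was -0.04 without the 3 arrays, and Egr3, a factor induced by synaptic activity, differed by -0.20. Of 21 core clock genes 14 were lower, with a median of -0.05 that was -0.01 without the 3 arrays, and the nuclear receptor Rora differed by -0.32. Without the cortex the clock median was 0.005. The animal means of both lists overlapped between genotypes. They were 10.66 to 10.80 in WT and 10.57 to 10.77 in KO for immediate early genes, and 11.81 to 11.92 and 11.76 to 11.88 for clock genes.

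Among receptor genes, 9 of 12 measured GABA-A subunits were higher in KO and 0 passed, with a median of 0.17 that was 0.10 without the 3 arrays. Gabra5, a subunit of extrasynaptic receptors, had animal means of 12.69, 13.05, 13.73 and 13.04 in WT and 14.14, 13.58, 14.65 and 13.66 in KO. The difference was 0.88 (SE 0.23, limma adjusted p = 0.7202), with overlap between WT 3 and both KO 2 and KO 4. By region it was 0.73, 0.01 and 1.90 in cortex, hippocampus and cerebellum, where the cerebellum of KO 3 read 13.17 against 7.59 to 10.25 in WT, and without the 3 arrays it was 0.40. Gabra3 differed by 0.41 over the brain and by 0.21 without the 3 arrays. Of 16 ionotropic glutamate receptor subunits 12 were higher, with a median of 0.04, and the NMDA receptor subunit Grin2b differed by 0.23.

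**Figure D4:**
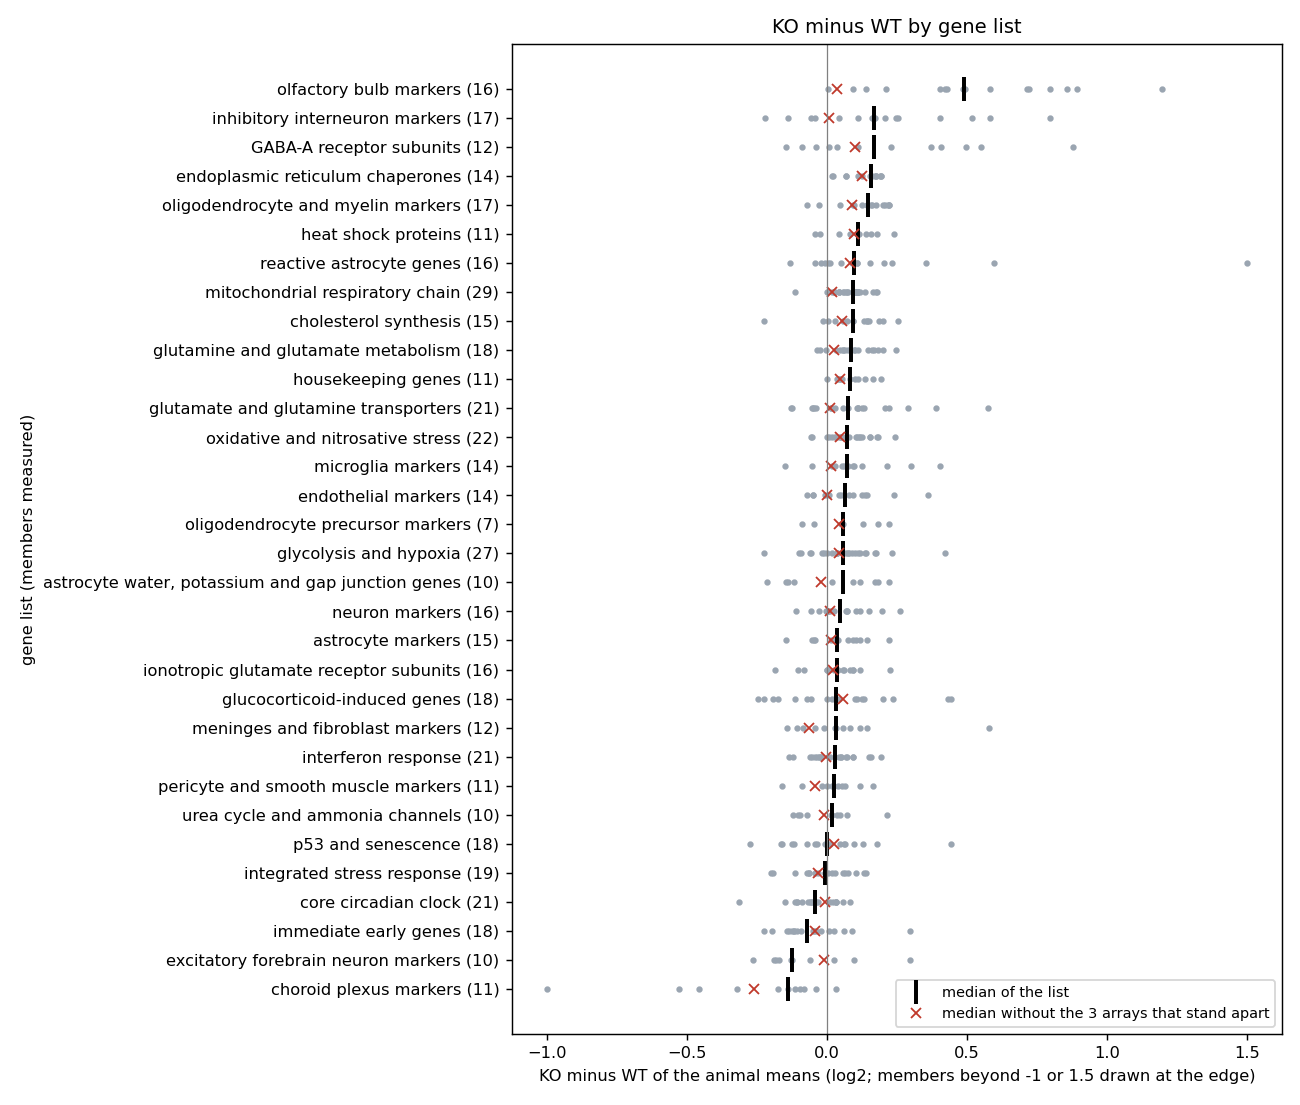
KO minus WT of the animal means (log2) for each measured member of 32 gene lists (grey points), with the median of a list as a black bar and its median without the 3 arrays as a red cross; the number of measured members is in brackets, and points beyond -1 or 1.5 are drawn at the edge. The olfactory bulb markers lie highest, with a median of 0.49 that was 0.04 without the 3 arrays, and the choroid plexus markers lowest of those drawn, with -0.14 and -0.26.

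The olfactory bulb list had the median farthest from 0. All 16 measured olfactory bulb markers were higher in KO and 8 had an unadjusted p under 0.05, with 0 passing, and their median went from 0.49 to 0.04 without the 3 arrays. Th, the rate-limiting enzyme of dopamine synthesis and a marker of bulb interneurons, differed by 1.20 over the brain, and by 0.29 without the 3 arrays. Choroid plexus markers were lower in 10 of 11 members, with a median of -0.14, which was -0.26 without the 3 arrays and 0.02 without the cerebellum. Ttr, the main product of that tissue, took animal means of 15.13, 14.36, 12.92 and 15.00 in WT and 13.50, 12.54, 14.10 and 10.20 in KO, a difference of -1.77 (SE 0.68, limma adjusted p = 0.7202) with overlapping groups. It was -0.97 without KO 4, the lowest animal, and -2.41 without the 3 arrays. The mean of the choroid plexus list ran from 8.63 to 11.40 over the WT cerebellum arrays and from 8.74 to 11.97 over the KO hippocampus arrays. In the KO cerebellum it was 11.02 in KO 3, 1 of the 3 arrays left out, and 8.62 to 8.67 in the others. The part of choroid plexus in the Ttr difference, with or without the 3 arrays, was not tested.

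Markers of cell types differed little in the animal means. Astrocyte markers had a median of 0.04 (11 of 15 higher), neuron markers 0.05 (12 of 16), microglia markers 0.07 (12 of 14), endothelial markers 0.06 (10 of 14) and oligodendrocyte and myelin markers 0.15 (15 of 17), with 0 passing in each list. The differences were largest in the cerebellum, with medians there of 0.19, 0.27, 0.30, 0.22 and 0.51 in that order. Without the cerebellum the medians were -0.01 for astrocyte, -0.08 for neuron, -0.05 for microglia, 0.02 for endothelial and -0.04 for myelin markers. Without the 3 arrays they were 0.01 for astrocyte (9 of 15 higher), 0.01 for neuron (10 of 16), 0.02 for microglia (9 of 14), 0.00 for endothelial (7 of 14) and 0.09 for myelin markers (14 of 17), and without KO 3 the neuron median was -0.01. The myelin list was highest in KO 3, at 12.29 against 11.38 to 11.83 in the other 7 animals, and had a median of -0.07 without KO 3. Inhibitory interneuron markers had a median of 0.17 that was 0.01 without the 3 arrays, and excitatory forebrain neuron markers -0.13 and -0.01.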

How the data were processed

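Total RNA of 3 brain regions from 4 WT and 4 KO mice was measured on 24 arrays. The deposited log2 values were made by the authors with RMA, per the submitters' processing notes; those notes give neither version nor settings nor a genome build, and the log base was taken from the range of the values. The labels name biotin and also Cy3-labelled cRNA, so the labelling chemistry is not settled. RMA shrinks differences of dim probes, and detection could not be judged per array. Gene symbols came from the platform annotation; 19572 of 22206 rows carried one (19505 symbols), and no row was removed for low signal. Among the 2634 rows without a gene, limma gave 0 calls (smallest adjusted p 0.7981) and 140 rows at an unadjusted p under 0.05.

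Values of an animal were averaged over its 3 regions and fitted with lmFit and eBayes of limma 3.58.1 in R 4.3.3, with 1 mean per genotype, 6 residual and 7.11 prior degrees of freedom, and Benjamini-Hochberg adjustment at 0.05. The interaction of region and genotype was fitted on the arrays with the animal as a random block (duplicateCorrelation, statmod 1.5.0). Differences between animals were tested with the animal as a fixed term, leaving 12 residual degrees of freedom. Moderated t statistics were 2-sided. The procedure was also run on simulated rows of independent normal noise with differences added to some of them. Those draws held no arrays with high markers of neighbouring tissue, so they cannot show how the procedure fares with such arrays. The number of arrays limits the precision.

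Named genes were the 12 of smallest p in each direction with 1 symbol, without predicted or unnamed transcripts and receptor families (0 and 4 rows passed over), the 2 members of smallest p of each pathway list, the 8 genes of smallest p between animals, and Gfap, Aqp4, Slc1a2 and Slc1a3. Other names were chosen after their values were seen. The comparison, the 42 gene lists and their members were chosen with earlier results of these data known. Lists were described by counts and medians, without a set test.

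The labels do not state that WT and KO animals of the same number are paired. Over all rows, deviations of WT and KO animals of the same number correlated by 0.03, 0.01, 0.12 and -0.24. Of the 4 WT animals, 1 correlated best with the KO animal of its number. Few rows differed between animals, so these correlations cannot decide whether the number pairs animals. Nfkbia rose from animal 1 to animal 4 in both genotypes, and Mid1 did not. Alternatives were the median of regions, each region left out, the 3 arrays left out, quantile normalization, median centring, another prior, no moderation, a filter at the 25th percentile of brightness, the replicate block and each animal left out. Promoter sequences are from RefSeq, GRCm38.p6; all 3 symbols searched for were matched.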

Additional observations from a re-analysis of the deposited data

Results flagged for a closer look

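In the 228 groups of 4 animals examined (named genes and list means), 13 held an animal whose gap to the nearest other exceeded Dixon's 95% critical value as a share of the group's range. Chance alone sets apart about 1 in 20 groups. The values are those of animal means on the log2 scale, with no explanation weighed.

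KO 3 stood above the other KO animals in Fkbp5 (12.99, others 12.19 to 12.28) and below them in Slc1a3 (12.53, others 13.05 to 13.10). It was also above them in the mean of the respiratory chain subunits (13.14, others 13.02 to 13.03), of the oligodendrocyte precursor markers (10.46, others 10.18 to 10.20) and of the microglia markers (9.77, others 9.52 to 9.55). In Abat KO 4 was low, at 14.06 with the others at 14.24 to 14.27, and in Hspa4l, a heat shock protein, it was high, at 14.41 with the others at 14.27 to 14.28. KO 2 was low in Arhgef6 (9.98, others 10.48 to 10.58) and high in H2bc18 (9.53, others 9.38 to 9.41). Pfkp was high in KO 1, at 14.81 with the others at 14.63 to 14.66. Among WT animals, WT 1 was high in the mitochondrial chaperone Hspd1 (13.62, others 13.36 to 13.39), and WT 2 in Plekha2 (8.51, others 8.48 to 8.49) and in the mean of the urea cycle list (7.06, others 6.95 to 6.96). Both of these WT 2 gaps are smaller than the median residual standard deviation of an animal mean, 0.109.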

How the results depend on the processing

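No row passed in the comparison of animal means under 10 of 12 alternatives that kept all 8 animals. The replicate block, which pairs animals by number although the labels name different animals, gave 1 row (the cadherin Cdh19, 0.64, limma adjusted p = 0.04039), and the median of regions gave 1 row (Plxnd1). Leaving out each animal in turn gave 0 to 4 rows, the 4 being Stoml3, Galntl6, Prss23 and Arhgef6 without KO 2, and Lcn2 being the 1 row without KO 4. The 1331 rows at an unadjusted p under 0.05 became 821 without the cortex, 648 without the 3 arrays, and 872 (without WT 2) to 1614 (without KO 4) with 1 animal left out. For the difference between regions the 996 rows became 625 without the 3 arrays and 557 to 1559 with 1 animal left out, and the 12 rows that differed between animals became 15 without the 3 arrays (10 of them among the 12), 11 with quantile normalization (10 of them) and 3 to 14 with 1 animal left out (at most 10 of them). Leaving out animals in these 2 tests, and in the rows of at least 1.5-fold, was added after the data were seen. Of 42 list medians, 27 changed sign or became 0 under at least 1 alternative. All 24 genes of smallest p kept their direction in every alternative run. They were ranked on these same arrays. In 22 of the 24 the animals of the 2 genotypes did not overlap, so leaving out 1 animal could not turn the sign. Signs turned for Gfap with the median of regions (-0.041), without the cerebellum (-0.10) and without the 3 arrays (-0.012), for Slc1a2 with the median of regions (-0.031), without the cerebellum (-0.16) and with quantile normalization (-0.00044), for Slc1a3 without the cerebellum (0.079), for Gabra3 without the cerebellum (-0.01), for Eps8l1 without the hippocampus (-0.0088) and for Ifit2 without the 3 arrays (-0.020); none of these had passed. With 1 animal left out, values spanned 0 for Nfkbia (-0.44 to 0.080), Mid1 (-0.52 to 0.21), Eps8l1 (-0.11 to 0.40), Sgk1 (-0.58 to 0.11), Gfap (-0.029 to 0.28), Slc1a2 (-0.052 to 0.074) and Slc1a3 (-0.11 to 0.090). Quantile normalization and median centring moved the median of all rows to -0.003 and -0.011. The cause of these changes was not tested.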

Other observations

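Rows were ordered by mean value and divided into 4 sets of 4893. From the dimmest set to the brightest, 38.4%, 42.5%, 55.6% and 65.8% of rows were higher in KO, with medians of -0.022, -0.019, 0.015 and 0.037.

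Of 21 measured genes beside the targeted locus on chromosome 1, 8 were higher and 13 lower in KO, with a median of -0.03 and 0 passing in limma; the calcium channel Cacna1e differed by -0.18 and the phosphate exporter Xpr1 by 0.16.

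Some genes came near the threshold of the test between animals. Cirbp and Rbm3, which code for RNA-binding proteins induced by cold, were highest in WT 4, at 11.90 and 14.63, where the other WT animals read 10.79 to 11.50 and 13.70 to 14.31. The adhesion molecule Vcam1 was highest in KO 3, at 10.52 with the other animals at 9.39 to 10.09. The coagulation starter F3 was lowest in WT 1, at 10.74, and highest in WT 4, at 11.74. The limma adjusted p between animals was 0.0909 for Cirbp and Rbm3, 0.0565 for Vcam1 and 0.0667 for F3.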
